A study of Mus musculus with 10 samples.

Results

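The BCL2 family comprises proteins that set whether the outer membrane of the mitochondrion is breached during apoptosis. Pro-survival members hold the effectors Bax and Bak1 in check, BH3-only members either neutralise the pro-survival proteins or engage the effectors, and the effectors, once released, form pores through which cytochrome c reaches the cytosol. In the aortic wall the family is known for its part in the loss of smooth muscle cells and in the life span of the leukocytes that enter inflamed tissue. The genes described here were the 10 family members Bcl2, Bcl2l1, Mcl1 and Bcl2a1b (pro-survival), Bax and Bak1 (effectors), and Bid, Bbc3, Pmaip1 and Bcl2l11 (BH3-only), found by their symbol among the 35527 gene names of the array. Symbols of 9 of the 10 were present. Bcl2a1b was not among them, although 1 probe named for its near-copy Bcl2a1d lists transcripts of Bcl2a1d, Bcl2a1b and Bcl2a1a together.

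The infrarenal aorta of male C57BL/6J mice, 10 weeks old and on a normal diet, was infused for 5 min at 100 mmHg. Sham mice (n = 5) received saline. PPE mice (n = 5) received saline with type I porcine pancreatic elastase at 1.5 U/mL, an enzyme that degrades elastic fibres and leads to aneurysm, and the segment was taken from both groups on day 7. Each array carried Cy5-labelled RNA of 1 mouse against a Cy3-labelled universal mouse reference, so that a level here is the log2 ratio of aorta over reference, and a log2 fold change is the PPE mean minus the sham mean of such ratios. The comparison asks which of these genes had altered transcript levels in the aneurysmal segment, and transcripts say nothing of protein activation or of cell death itself.

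Between 37.6% (sham 5) and 65.8% (PPE 1) of spots had a Cy5 signal above background. Of 22520 gene names that could be tested, 3122 were higher (13.9%) and 2244 lower (9.96%) in PPE at an adjusted p under 0.01 (limma, Benjamini-Hochberg). In sham aorta the mean of the 5 smooth muscle markers lay between 4.11 and 4.87 over the reference. The 4 adipocyte markers averaged 4.18 to 5.35 in the same arrays and the 4 skeletal muscle markers 1.96 to 4.92. High readings were thus not particular to smooth muscle. Of the smooth muscle markers Acta2, Tagln, Cnn1 and Smtn fell in PPE, and Myh11 was not called (-0.74, adjusted p = 0.206, limma). Slide 1 held sham 1, PPE 1 and PPE 2, which alone were scanned on another day, and slide 2 held sham 2, sham 3, PPE 3 and PPE 4. The remaining 3 arrays sat on a slide each. Under median centring of the arrays in place of loess, the median log2 fold change of all names moved from 0.02 to 0.43, and only 355 names were higher and 6 lower. Higher names then made up 98.3% of calls, against 58.2%.

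Among the 9 members tested, 5 rose, 1 fell and 3 were not called. All 5 that rose are pro-death (Pmaip1, Bak1, Bid, Bcl2l11 and Bax), and the 1 that fell is Bcl2. Bcl2l11 entered the test through PPE alone, with 0 sham and 5 PPE arrays above background, and with no filter on dim probes 4 members rose (Bcl2l11 adjusted p = 0.0103, limma). Under median centring 1 member (Pmaip1) was higher and 0 were lower. The background was 13.9% of all tested names for a rise and 9.96% for a fall. In 5 members (Bcl2, Bax, Bak1, Bid and Pmaip1) no sham array overlapped any PPE array, against 25.5% of all tested names. The median log2 fold change was 1.10 over the 6 pro-death members and -0.28 over the 3 measured pro-survival members, against 0.02 over all tested names. The pro-survival median leaves out the probe named Bcl2a1d, which lists Bcl2a1b among its transcripts and rose by 3.28. It takes Mcl1 by its brighter probe (0.57), while the dimmer one gave 1.53. These medians are descriptions of a chosen list and carry no test. Within slide 1 and within slide 2 every member kept its direction, with Bcl2l1 at -0.75 and -0.10, Mcl1 at 0.63 and 0.72, Bid at 1.41 and 1.25, Bcl2l11 at 1.56 and 0.93, and Bbc3 at 0.34 and 0.65. For the 5 members without overlap this had to follow from the separation of the groups. The only sham array on slide 1 was sham 1.

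Probe sequences of 4 family genes are shown because the results below rest on what each probe can see. All are sense-strand 60-mers, printed 5′ to 3′, with positions on mm9 as the array files give them. Each has at least 1 of its 3 reading frames free of stop codons. The Bcl2 probe (chr1:108608970-108609029, minus strand) gave the only fall among the members. The Bcl2l1 probe (chr2:152655185-152655244, minus strand) is the dimmer of that gene's probes, the Bcl2l11 probe (chr2:127972893-127983988, plus strand) spans 11096 bases of genome and so crosses an intron, and the Bcl2a1c probe (chr9:114239422-114239481, plus strand) belongs to the copy with the greatest rise in the family.
Bcl2: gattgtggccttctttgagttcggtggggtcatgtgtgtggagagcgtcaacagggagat
Bcl2l1: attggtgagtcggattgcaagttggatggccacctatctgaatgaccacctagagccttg
Bcl2l11: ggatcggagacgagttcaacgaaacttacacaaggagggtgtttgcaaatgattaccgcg
Bcl2a1c: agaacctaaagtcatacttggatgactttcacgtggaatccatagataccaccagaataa

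**Figure D1:**
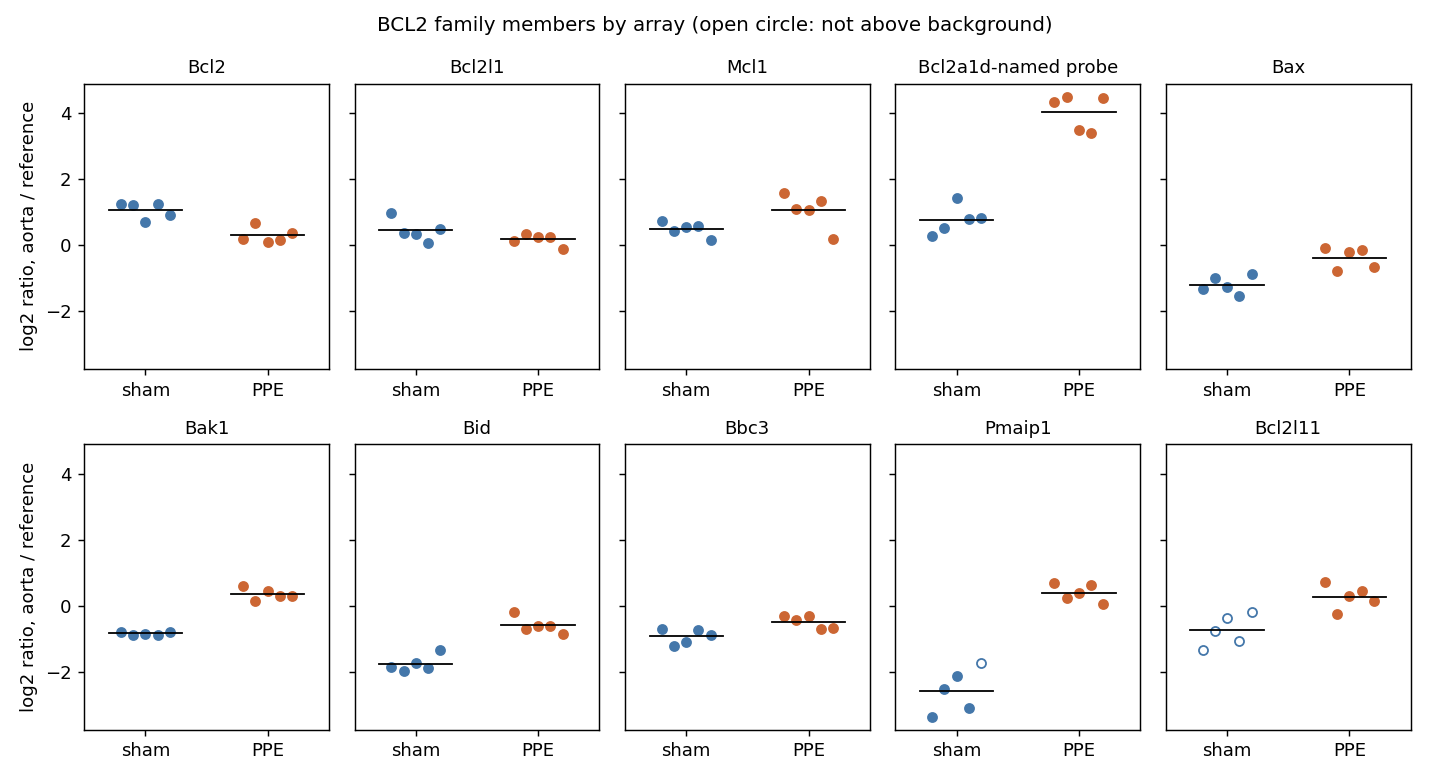
Log2 ratio of aorta over reference (vertical axis) for each measured member and for the probe named Bcl2a1d, in 5 sham and 5 PPE arrays, with filled circles where the Cy5 signal was above background, open circles where it was not, and a line at the group mean. Bcl2 lay lower in PPE without overlap, a call lost under median centring, while Bax, Bak1, Bid and Pmaip1 lay higher without overlap, and the 5 sham circles of Bcl2l11 are open.

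Bcl2, the founding pro-survival member, fell by 0.77 on the log2 scale in PPE aorta (SE 0.15, adjusted p = 0.0019, limma), a 1.71-fold lower ratio, although under median centring the value was -0.13 (adjusted p = 0.909). The log2 ratios were 1.26, 1.22, 0.70, 1.24 and 0.92 in sham 1 to 5 and 0.19, 0.67, 0.09, 0.15 and 0.37 in PPE 1 to 5. Every sham array was above every PPE array, with the narrowest gap between sham 3 and PPE 2. The exact two-sided permutation test over the 10 arrays gave p = 0.00794, the smallest that 5 against 5 arrays allow. Within slide 1 the difference was -0.83 and within slide 2 it was -0.84. Relative to the shifted median of all names, median centring placed Bcl2 at -0.56, against -0.79 with loess.

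Bcl2l1 encodes Bcl-xL, a pro-survival protein of broad tissue range, and was not called. Its brighter probe read 0.98, 0.38, 0.33, 0.08 and 0.50 in sham 1 to 5 and 0.13, 0.33, 0.25, 0.26 and -0.12 in PPE 1 to 5, so that the groups overlapped. The log2 fold change was -0.28 with a 95% interval from -0.64 to 0.07 (adjusted p = 0.210, limma), and it turned to 0.46 under median centring (adjusted p = 0.692). The dimmer probe shown above differed by -0.55 (SE 0.16, adjusted p = 0.0231 over all tested probes, limma), which also missed the threshold. The difference between the readings of both probes did not differ between groups beyond the spread of the arrays (PPE minus sham -0.27, exact permutation p = 0.230).

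Mcl1, a short-lived pro-survival protein on which myeloid cells are known to depend, was not called by its brighter probe but differed clearly by its dimmer one. On the brighter probe (mm9 chr3:95466855-95466914) the log2 ratios were 0.72, 0.42, 0.55, 0.60 and 0.16 in sham 1 to 5 and 1.59, 1.11, 1.06, 1.35 and 0.17 in PPE 1 to 5. PPE 5 read within the sham range, and the other 4 PPE arrays lay above all sham arrays. The log2 fold change was 0.57 (95% interval 0.06 to 1.07, adjusted p = 0.0797, limma). Without PPE 5 it was 0.79 and passed the threshold (adjusted p = 0.00183), as it did with the slide as a block (0.68, adjusted p = 0.00922).

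The dimmer Mcl1 probe (chr3:95465543-95465602) lies 1252 bases upstream on the same strand and had no overlap between groups. It read -0.12, -0.27, -0.17, -0.55 and -0.60 in sham 1 to 5 and 1.82, 0.80, 1.18, 1.44 and 0.72 in PPE 1 to 5, a log2 fold change of 1.53 (SE 0.20, adjusted p = 0.000157 over all tested probes, limma). The mean of both probes gave 1.05 (adjusted p = 0.00222). The reading of the dimmer minus that of the brighter probe averaged -0.83 ± 0.19 over sham arrays and 0.14 ± 0.31 over PPE arrays (SD, n = 5 each, exact permutation p = 0.00794, adjusted p = 0.0159 over the 2 genes compared in this way). This comparison of probes was chosen after the values were seen. The probes therefore disagreed on the size of the Mcl1 difference and on its call, and shared its direction.

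**Figure D2:**
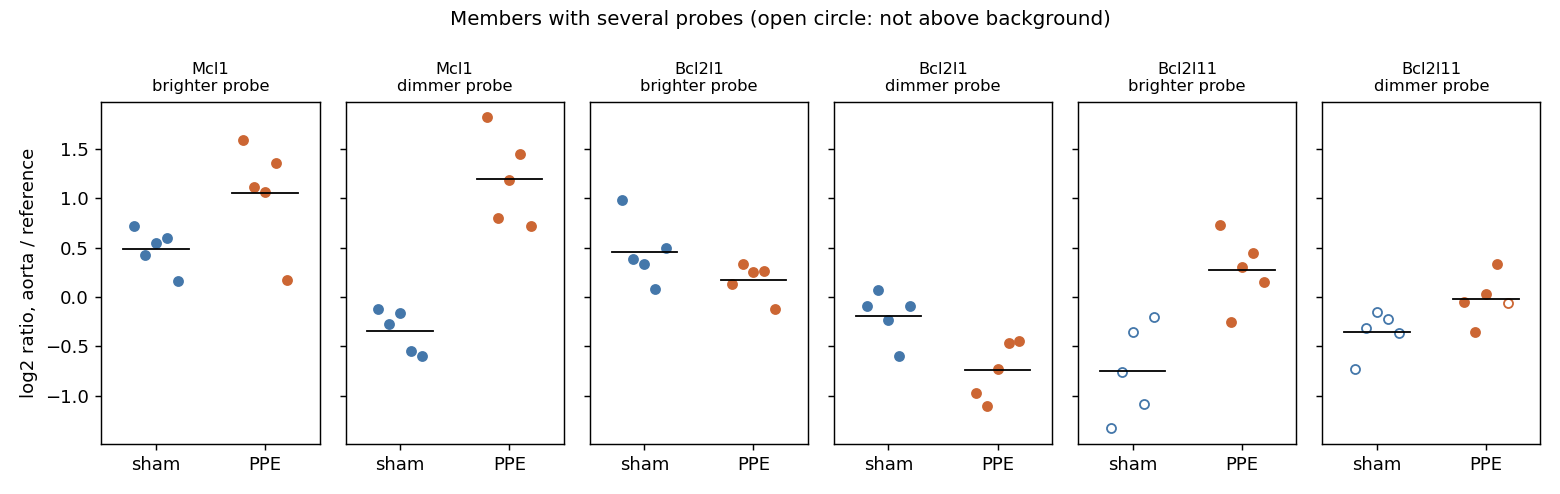
Log2 ratio of aorta over reference (vertical axis) on the brighter and the dimmer probe of Mcl1, Bcl2l1 and Bcl2l11 in 5 sham and 5 PPE arrays, with open circles where the Cy5 signal was not above background and a line at the group mean. The dimmer Mcl1 probe separated the groups while PPE 5 lay among the sham arrays on the brighter one, and Bcl2l11 was above background in no sham array on either probe.

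The Bcl2a1 gene group is known for A1, a pro-survival protein of haematopoietic cells that is induced by inflammatory signals. Mice carry several near-identical copies on chromosome 9, and whether each copy yields a working protein cannot be read from these arrays. Bcl2a1b itself had no value of its own. The probe named Bcl2a1d, which cannot tell Bcl2a1d, Bcl2a1b and Bcl2a1a apart, read 0.27, 0.53, 1.42, 0.78 and 0.81 in sham 1 to 5 and 4.34, 4.51, 3.50, 3.41 and 4.46 in PPE 1 to 5. The ratio was 9.72-fold higher in PPE (log2 fold change 3.28, SE 0.27, adjusted p = 4.88e-06, limma), and it exceeded the log2 fold change of 99.4% of tested names. Within slide 1 the difference was 4.16 and within slide 2 it was 2.48.

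The fourth copy, Bcl2a1c, read -0.01, -0.20, 0.66, 0.00 and -0.25 in sham 1 to 5, of which only sham 1 and sham 3 were above background, and 5.52, 4.07, 3.79, 4.38 and 2.50 in PPE 1 to 5. Its log2 fold change was 4.01 (SE 0.44, adjusted p = 3.55e-05, limma). The copies could share labelled RNA on these probes, and how much of either value belongs to which copy is uncertain. Bcl2 thus fell with loess and was not called under median centring, while the probes of the A1 genes read higher under both. With median centring the Bcl2a1d-named probe gave 3.42 (adjusted p = 0.00697, limma) and Bcl2a1c 3.51 (adjusted p = 0.00982, limma). No gain of A1 protein follows from these transcript readings.

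The upstream windows of the 4 Bcl2a1 copies are shown because probes of this gene group rose and because its copies, which the shared probe does not separate, are close to identical here too. Each window has 100 bases of RefSeq sequence on GRCm38.p6, all upstream of the annotated start site. It was cut to begin at the letters GAGGAAGT (capitals), a core bound by ETS factors such as PU.1, so the common first letters follow from that choice. The windows end 48 (Bcl2a1b), 4 (Bcl2a1a), 4 (Bcl2a1d) and 114 (Bcl2a1c) bases before the start site. Against Bcl2a1b (chr9:89199125-89199224, plus strand), Bcl2a1a (chr9:88956816-88956915, plus strand) and Bcl2a1d (chr9:88731855-88731954, minus strand) differed at 1 base each and Bcl2a1c (chr9:114329921-114330020, plus strand) at 6.
Bcl2a1b: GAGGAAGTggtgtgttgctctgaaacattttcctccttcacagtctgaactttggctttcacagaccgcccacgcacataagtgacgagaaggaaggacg
Bcl2a1a: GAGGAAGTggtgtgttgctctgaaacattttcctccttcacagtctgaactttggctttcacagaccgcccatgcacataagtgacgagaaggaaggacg
Bcl2a1d: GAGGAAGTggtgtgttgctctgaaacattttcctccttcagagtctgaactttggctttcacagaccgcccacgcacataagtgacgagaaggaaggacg
Bcl2a1c: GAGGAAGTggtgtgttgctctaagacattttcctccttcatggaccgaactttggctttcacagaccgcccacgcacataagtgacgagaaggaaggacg

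Promoter windows of 300 bases were searched on both strands for 5 motifs. GAGGAAGT was present in 3.2% of all 32851 windows. Among the members and the Bcl2a1 copies it was present in the 4 Bcl2a1 copies and in Bak1. CACGTG (E-box, 7.15% of windows) occurred in Bax and in 1 window of Bbc3, and GTAAACA (FOXO, 3.65%) in Bcl2l11 and Bbc3. TTCNNNGAA (GAS, 8.3%) and TGACGTCA (CRE, 1.79%) did not occur in the windows of these genes. Matches in Pmaip1 and in the further family genes were not looked up. Upstream stretches of 60 bases are shown with the motif in capitals, for Bax (chr7:45466899-45466958, minus strand) and for the FOXO-matched pair Bcl2l11 (chr2:128125788-128125847, plus strand) and Bbc3 (chr7:16310069-16310128, plus strand), where 1 gene was called and the other was not. A match is a description of letters, and binding was not measured.
Bax: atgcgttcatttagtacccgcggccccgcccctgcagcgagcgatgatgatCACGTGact
Bcl2l11: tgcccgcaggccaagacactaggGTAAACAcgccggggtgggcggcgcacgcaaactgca
Bbc3: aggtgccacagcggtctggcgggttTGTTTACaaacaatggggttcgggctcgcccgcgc

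Both effectors rose. Bak1, which resides on the mitochondrial membrane, read -0.79, -0.88, -0.86, -0.88 and -0.79 in sham 1 to 5 and 0.61, 0.15, 0.46, 0.30 and 0.31 in PPE 1 to 5. The sham arrays were nearly identical (SD 0.04), and every PPE array lay above them by more than the whole spread of either group. The ratio was 2.30-fold higher (log2 fold change 1.20, SE 0.11, adjusted p = 6.8e-06, limma), with 1.17 within slide 1 and 1.25 within slide 2. Leaving out any 1 array kept the value between 1.14 and 1.26.

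Bax, which moves from the cytosol to the mitochondrion when activated, read -1.32, -1.01, -1.27, -1.55 and -0.87 in sham 1 to 5 and -0.09, -0.80, -0.20, -0.15 and -0.68 in PPE 1 to 5. The groups did not overlap, but PPE 2 and sham 5 were only narrowly apart. The log2 fold change was 0.82 (SE 0.18, adjusted p = 0.00365, limma), a 1.77-fold higher ratio, with 0.88 within slide 1 and 0.97 within slide 2. The call was lost, with adjusted p between 0.0107 and 0.0118, when sham 1 (0.79), sham 4 (0.74), PPE 1 (0.75), PPE 3 (0.78) or PPE 4 (0.76) was left out.

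The difference Bcl2 minus Bax, taken on each array as a difference of log2 ratios, was 2.58, 2.24, 1.97, 2.78 and 1.79 in sham 1 to 5 and 0.28, 1.47, 0.30, 0.29 and 1.04 in PPE 1 to 5. It averaged 2.27 ± 0.41 over sham and 0.68 ± 0.55 over PPE arrays (SD, n = 5 each). All sham values were above all PPE values, and PPE 2 and PPE 5 stood closer to sham than the other 3 PPE arrays. As both terms come from the same array, a constant shift of that array cancels. A loess correction varies with brightness and need not cancel. The difference was -1.59 (PPE minus sham) with loess and -1.60 with median centring. It sets a change in 1 gene against a change in another, and is no ratio of their amounts. Bcl2 was the only member that fell, so the value depends on the pro-survival gene chosen. Against 0.82 for Bax, log2 fold changes were -0.28 and -0.55 on the Bcl2l1 probes, 0.57 and 1.53 on the Mcl1 probes and 3.28 on the Bcl2a1d-named probe.

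**Figure D3:**
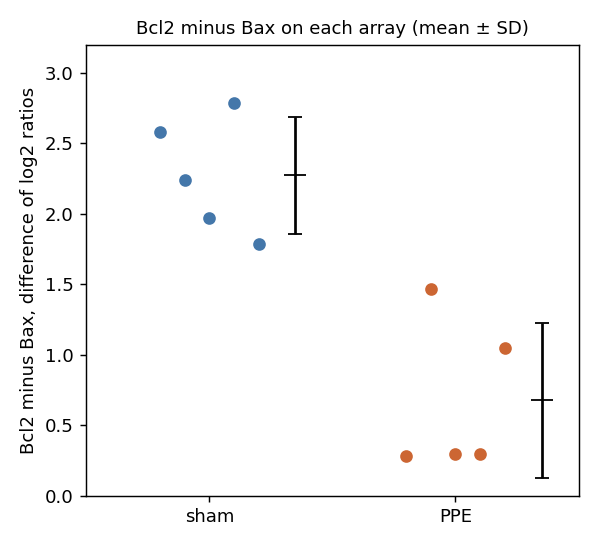
Bcl2 minus Bax as a difference of log2 ratios (vertical axis) on 5 sham and 5 PPE arrays, with the mean and SD of each group beside the points. Sham arrays lay between 1.79 and 2.78 and PPE arrays between 0.28 and 1.47, with PPE 2 and PPE 5 the highest of the PPE group.

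Among the BH3-only members, Pmaip1 (Noxa), which binds Mcl1 and A1 and favours their inactivation, rose most. It read -3.37, -2.51, -2.14, -3.10 and -1.74 in sham 1 to 5, with sham 5 not above background, and 0.69, 0.24, 0.40, 0.64 and 0.06 in PPE 1 to 5. The log2 fold change was 2.98 (SE 0.28, adjusted p = 1.25e-05, limma), a 7.87-fold higher ratio that exceeded the log2 fold change of 99.1% of tested names. The log2 fold change depended on how dim spots were handled, with 3.62 at a normexp offset of 10 and 4.24 with the scanner's own log ratio. All 5 PPE arrays were above all sham arrays. The difference of group means was 3.83 within slide 1 and 2.85 within slide 2. Pmaip1 was the only member still called under median centring (3.31, adjusted p = 0.00449, limma).

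Bid, the substrate through which caspase-8 passes a death receptor signal to the mitochondrion, read -1.85, -1.98, -1.72, -1.89 and -1.35 in sham 1 to 5 and -0.18, -0.71, -0.60, -0.60 and -0.86 in PPE 1 to 5. The groups did not overlap, and the ratio was 2.25-fold higher in PPE (log2 fold change 1.17, SE 0.15, adjusted p = 0.000132, limma). The Bid probe (mm9 chr6:120843464-120843523, minus strand) lies 603 bases from the probe of another family gene, Bcl2l13 (chr6:120842801-120842860, plus strand), which fell by 0.66 on the log2 scale. These neighbours on opposite strands thus differed in opposite directions, and under median centring neither was called.

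Bcl2l11 (Bim), a BH3-only protein that binds all pro-survival members, read -1.33, -0.76, -0.35, -1.08 and -0.20 in sham 1 to 5, none of them above background, and 0.73, -0.25, 0.30, 0.44 and 0.15 in PPE 1 to 5, all above background. PPE 2 lay just under sham 5, so the groups overlapped. The fitted log2 fold change was 1.02 (SE 0.24, adjusted p = 0.00586, limma). As sham has only a bound, the Cy5 signal was at least 1.88-fold higher in PPE, from a mean log2 signal of 7.59 in PPE against a bound of 6.68 in sham. The scanner's own log ratio, which substitutes background values for dim spots, gave 3.65, and a normexp offset of 10 gave 1.60. The call was lost when sham 1, sham 2, sham 4, PPE 1, PPE 3 or PPE 4 was left out (0.87 to 1.01, adjusted p 0.0139 to 0.0183). A second probe, above background in 4 PPE arrays and no sham array, was too dim to test and differed by 0.34.

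Bbc3 (Puma), a p53 target that engages every pro-survival member, read -0.70, -1.23, -1.10, -0.72 and -0.89 in sham 1 to 5 and -0.31, -0.41, -0.32, -0.71 and -0.67 in PPE 1 to 5. PPE 4 lay just under sham 1, so that the groups overlapped by a single pair of arrays. The log2 fold change was 0.44 with a 95% interval from 0.14 to 0.75 and was not called (adjusted p = 0.0270, limma). It was the smallest difference among the 6 pro-death members.

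Of 19 further genes listed with the family, 9 of them as atypical, 15 were tested, of which 5 were higher and 3 lower. The shares over all tested names were 13.9% and 9.96%. All 3 lower genes were listed as atypical, and whether each atypical gene belongs to the family by structure was not examined. Of 28 named family and pathway genes that are no members, Bcl2a1c included, only Bcl2a1c and Birc5 kept their call under median centring, and directions below are those with loess. Besides the A1 genes, Bok, an effector-like protein, had a 2.42-fold higher ratio (log2 fold change 1.27, SE 0.17, adjusted p = 0.000157, limma), from -1.52 to -0.86 in sham and from -0.21 to 0.54 in PPE. Bmf, a BH3-only protein tied to the cytoskeleton, ran from -0.30 to 0.21 in sham and from 0.66 to 1.46 in PPE, a log2 fold change of 1.12. Bcl2l14 rose by 2.35 on its brighter probe, which was above background in only 2 sham arrays. Its other probe differed by 0.82 and was not called (adjusted p = 0.0322 over all tested probes, limma). Hrk, Bcl2l15 and Bnipl were too dim to test.

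Bnip3, a mitochondrial protein of hypoxia and mitophagy, was the most reduced gene listed with the family. Its brightest probe ran from -1.41 to -0.84 in sham and from -2.88 to -2.34 in PPE, a log2 fold change of -1.57 (SE 0.14, adjusted p = 9.6e-06, limma), and its other 2 tested probes gave -1.18 and -1.03. Bnip2 was lower by loess (-0.81, adjusted p = 0.00314, limma) and 0.045 under median centring, and its dimmer tested probe differed by -0.076. Its call was lost without sham 2 (adjusted p = 0.0106). Bcl2l13 fell from 0.33 to -0.33 on average. Bcl2l2 (-0.47) and Bik (-0.39) had intervals below 0 and Bad (0.33, with -0.28 on its other tested probe) an interval above 0, but none passed the threshold.

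**Figure D4:**
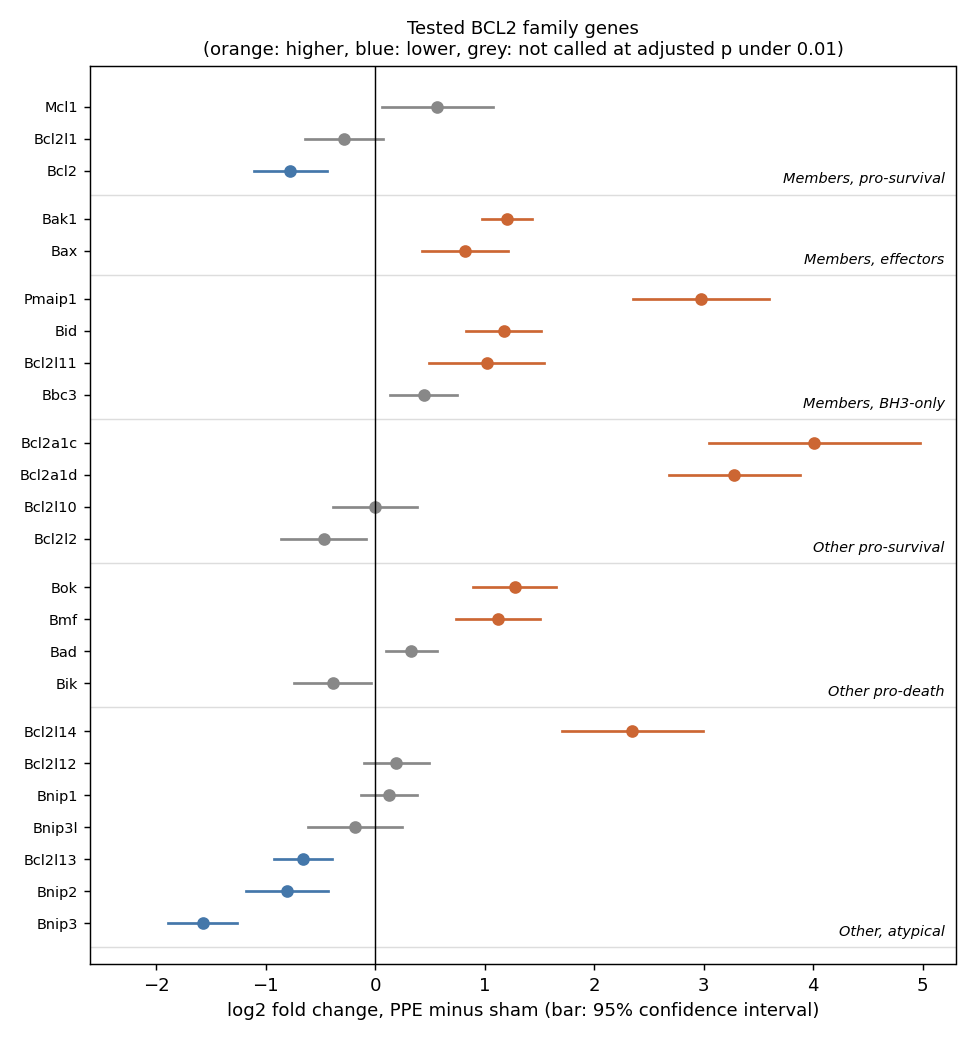
Log2 fold change, PPE minus sham, with its 95% confidence interval (horizontal axis) for the 9 members and 15 other genes listed with the family that were tested, grouped by role, with orange for higher, blue for lower and grey for genes not called. The A1 genes and Pmaip1 lay farthest to the right and Bnip3 farthest to the left. Among the members and the other genes called, median centring turned the sign of Bcl2l1 and Bnip2. Values of the remaining genes under that setting are not given.

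The genes that act downstream of the membrane pore moved in both directions. Of 13 genes of the apoptosome and its caspases, 5 were higher and 3 lower, against 13.9% and 9.96% of all tested names. Apaf1, the scaffold of the apoptosome, rose by 1.67 and Casp6 by 0.94 on the log2 scale. Cycs (cytochrome c) fell by 1.68, Endog by 1.03 and Aifm1 by 0.87, all 3 of them proteins held inside mitochondria. Casp9 (0.27) was not called. The Apaf1 call was lost without the filter on dim probes (adjusted p = 0.0136), with the scan day as a block (adjusted p = 0.0104) and when sham 1, sham 2, sham 4, sham 5, PPE 1, PPE 3 or PPE 4 was left out (adjusted p 0.0143 to 0.0201), and its groups overlapped, the lowest PPE array being at -0.75 and the highest sham array at -0.32.

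Inhibitors of apoptosis were higher in 3 of 5 cases, against 13.9% of all tested names. Birc5 (survivin), which also serves in cell division, rose by 2.90, Birc3 by 1.37 and Birc2 by 0.75 on the log2 scale, while Xiap (-0.08) and Birc6 (0.10) were not called. Other Birc5 probes gave 1.32 and 0.82. The proliferation markers Mki67, Top2a and Ccnb1 rose as well, with the mean of the 4 listed markers from -4.82 to -3.20 in sham and from -2.69 to -1.90 in PPE, and their part in the Birc5 value was not tested. Of 6 genes for channels, receptors and fission factors of the outer membrane, Mtch2, the docking receptor of Bid, fell by 1.10 on its brightest probe (-0.47 and -0.094 on its other tested probes, neither called) and Vdac1 by 0.76, whereas Vdac1 was 0.13 under median centring.

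In the death receptor arm, which feeds Bid, 6 of 10 genes were higher and 4 were not called, against 13.9% of all tested names higher. Fasl rose by 2.20, Casp8, the protease that cleaves Bid, by 1.59 and Tnfsf10 (Trail) by 1.27 on the log2 scale. Only 2 sham arrays were above background for Fasl. Fas itself (0.18) was not called. The inhibitor Cflar was not called on its brightest probe (-0.14), while of its other 2 tested probes 1 gave -0.079 and 1 gave 1.07 (adjusted p = 7.08e-05 over all tested probes, limma). Of 12 genes of the p53 arm, 1 was higher and 2 lower, near the shares of all tested names (13.9% and 9.96%). Perp, a p53 target at cell junctions, fell by 3.34 and Phlda3 by 0.87, and Cdkn1a (p21) rose by 0.77 on its brightest probe, while its other tested probe gave -0.42 and the mean of both was not called (0.17, adjusted p = 0.277, limma). Trp53 (0.52) and Mdm2 (0.56) missed the threshold.

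Of 7 regulators of BH3-only transcription, E2f1 rose by 1.13, Stat3 by 0.95 on its brightest probe (0.35 on the other tested probe, not called) and Nfkb1 by 0.53, and Ddit3 was lower by loess (-0.56) but 0.077 under median centring. Leaving out 1 array ended the Nfkb1 call for sham 1, sham 2, sham 3, sham 4, PPE 1, PPE 2, PPE 4 or PPE 5 (adjusted p 0.0115 to 0.0165) and the Ddit3 call for sham 2, sham 4, sham 5, PPE 1, PPE 3 or PPE 4 (adjusted p 0.0139 to 0.0184). Foxo1 (-0.58, adjusted p = 0.0378, limma) and Foxo3 (0.05) were not called. None of the 3 genes of Mcl1 turnover (Huwe1, Usp9x and Fbxw7) was called by limma, and 0 had an unadjusted p under 0.05. Over all 56 pathway genes, 18 were higher and 8 lower, with a median log2 fold change of 0.13. Of all tested names 13.9% were higher and 9.96% lower, with a median of 0.02. The lists were chosen and their counts carry no test.

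Markers of the cells in the tissue differed between the same arrays. All 5 macrophage markers rose, and their mean ran from -0.49 to 0.04 in sham and from 2.17 to 3.49 in PPE. Of 7 neutrophil markers 6 rose (mean 0.55 to 0.67 in sham, 2.94 to 4.25 in PPE), and of 5 T cell markers 4 rose (-1.17 to 0.17 in sham, 0.87 to 1.96 in PPE). The neutrophil marker Ngp entered the test through PPE alone, with 0 sham and 5 PPE arrays above background. Cxcr2 and Ltf were above background in 1 sham array each, so the sham mean of that list rests partly on dim readings. Ptprc (CD45), carried by all leukocytes, rose by 3.06. Of 5 smooth muscle markers 4 fell (4.11 to 4.87 in sham, 2.22 to 3.59 in PPE), and Acta2 fell by 2.48. Of 5 fibroblast markers Col1a1 and Pdgfra rose. None of the 5 endothelial, 4 B cell, 4 mast cell, 4 adipocyte or 4 skeletal muscle markers was called by limma, and of these Cdh5, Lep and Plin1 had an unadjusted p under 0.05. In whole tissue, more or fewer cells of a type and more or less RNA per cell cannot be told apart, and the part of these cell markers in the values of Bcl2, the A1 genes, Pmaip1 and the other members was not tested.

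**Figure D5:**
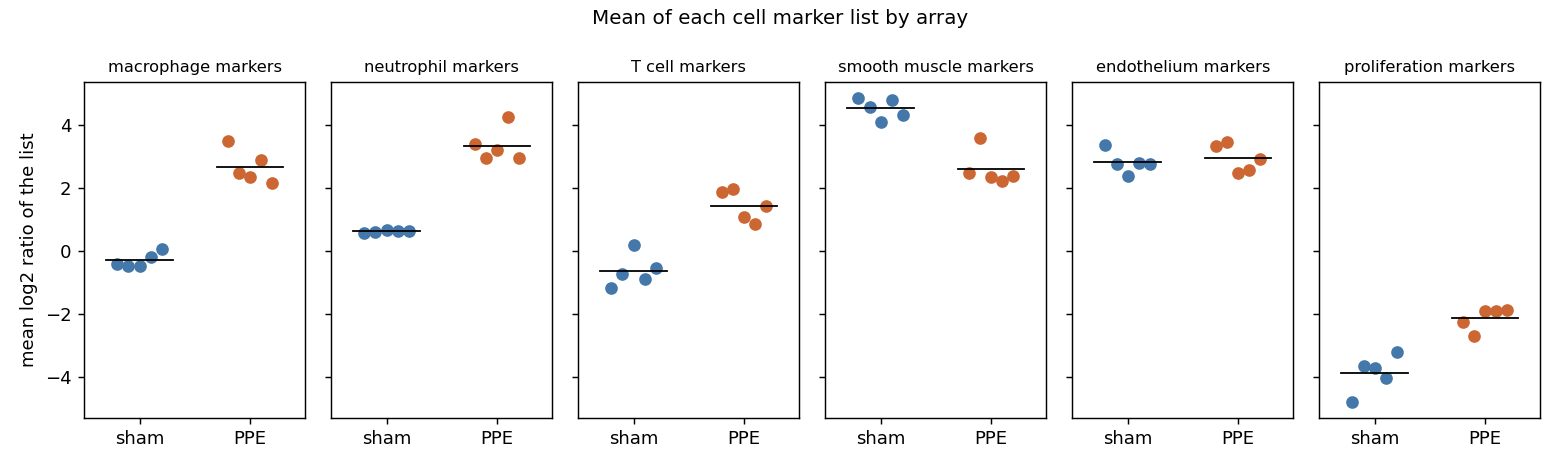
Mean log2 ratio of aorta over reference (vertical axis) of each cell marker list on 5 sham and 5 PPE arrays, with a line at the group mean. Macrophage, neutrophil and T cell lists lay higher in PPE and the smooth muscle list lower, while the endothelial list overlapped between groups.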

How the data were processed

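RNA from 10 mouse aortas (5 sham, 5 PPE; 500 ng each) was hybridized to 2-colour Agilent arrays, and the labels gave each array's group and replicate number. The authors left out arrays of poor hybridization and outliers, without saying which. Images were quantified by the authors in Agilent Feature Extraction (10.7.3.1). Each deposited signal or background is an intensity (linear). The scanner's deposited ratio of Cy5 to Cy3 is given as log10 and was rescaled to log2. The authors' value table holds log2 ratios that equalled processed Cy5 over processed Cy3 on 100% of spots within 1e-04. Both ratios served as alternatives only.

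Signals were background-corrected (normexp, offset 50) and loess-normalized within arrays in limma 3.58.1 (R 4.3.3), control spots having weight 0. Outlier spots were dropped and spots of a probe averaged. A probe was tested where Cy5 was above background on at least 5 of 10 arrays, and a gene was represented by its brightest tested probe. Groups were compared unpaired (lmFit, eBayes, two-sided) with Benjamini-Hochberg adjustment over 22520 names and called at an adjusted p under 0.01, the false discovery rate of the study, whose SAM test was not run. The procedure was tested on simulated data. The 10 arrays, 1 mouse each, limit the precision. Dyes were not swapped, so that a dye bias that varies with signal does not cancel. RefSeq symbols matched all 10 members. Gene names and coordinates on mm9 come from the array files, promoters from RefSeq (GRCm38.p6). Probes were matched to members by name.

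The members and gene lists were chosen with earlier results of these data known. Named genes were all members, every other family gene past the threshold, and up to 3 genes per direction with the largest differences in each pathway list, with the first gene of a marker list as its example. Any other gene named was chosen after its values were seen. Some genes of the apoptosome list are not reported here by name. Alternatives covered normalization, background, filter, probe choice, slide, scan day, replicate number and leaving out arrays.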

Additional observations from a re-analysis of the deposited data

How the results depend on the processing

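Over 24 or 25 alternatives per member, Bak1, Bid and Pmaip1 stayed higher and on their side of the threshold except under median centring, where Bak1 (1.85, adjusted p = 0.0907) and Bid (1.75, adjusted p = 0.0983) were not called, as were Bax (1.47, adjusted p = 0.156), Bcl2l11 (1.06, adjusted p = 0.0582) and Bcl2 (-0.13, adjusted p = 0.909), while Bcl2l1 turned to 0.46. That setting gave 355 names higher and 6 lower, and 1 member higher and 0 lower. The count of members higher was 3 where every array needed a Cy5 signal above background, since Pmaip1 and Bcl2l11 then had no tested probe. With the replicate number as a block it was also 3, because Bax (0.82, adjusted p = 0.0165) and Bcl2l11 (1.02, adjusted p = 0.0156) were lost, while 3024 names were higher and 2281 lower. Same-numbered arrays deviated from their group means with correlations of 0.29, -0.30, 0.16, -0.14 and 0.52. Sham 5 and PPE 5 correlated best with each other, and PPE 1 best with sham 1, while no other array correlated best with its own number. The labels give a replicate number and state no pairing. Leaving out 1 array at a time gave 3 to 6 members higher, 1 lower, 2514 to 3615 names higher, 1752 to 2348 lower, and -1.79 to -1.47 for Bcl2 minus Bax. Bcl2l11 was also lost without a filter on dim probes (adjusted p = 0.0103), and Mcl1 was gained without sham 5 and PPE 5 (0.71, adjusted p = 0.00303). Among 28 other named genes, 26 lost their call or turned under median centring, with Bnip2 at 0.045, Vdac1 at 0.13 and Ddit3 at 0.077. Leaving out 1 array at a time ended the call of Apaf1, Nfkb1, Ddit3 or Bnip2 in 22 of 280 fits of the 28 genes. Further losses were Nfkb1 with the scanner's log ratio (adjusted p = 0.0228), with the slide as a block (adjusted p = 0.0347) or without sham 5 and PPE 5 (adjusted p = 0.0154), Phlda3 (adjusted p = 0.0113) and Ddit3 (adjusted p = 0.0107) with that block, Cdkn1a with the mean of its probes (adjusted p = 0.277), and Apaf1 without the filter or with the scan day as a block. The cause was not tested. Signal over background limits Bcl2l11, Bcl2a1c and Pmaip1, whose sham readings lay at or near it. The same limit holds for Fasl, the brighter Bcl2l14 probe and the neutrophil markers Ngp, Cxcr2 and Ltf.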
